A study of Mus musculus with 16 samples.

Results

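Expression of the collagen genes was read in hearts of *Chd7* fl/fl;*Mesp1-Cre* mutant embryos and control embryos at E11.5 and E13.5. The members are all genes named alone by a probe set on the arrays (Affymetrix Mouse Gene 1.0 ST) whose platform symbol has the form Col, a type number, a and a chain number. This gave 46 probe sets and 44 genes, of 34760 probe sets and 19937 genes that a probe set names alone. They were divided by textbook family into 11 fibrillar genes, 8 basement membrane genes (6 chains of type IV collagen and the multiplexins *Col15a1* and *Col18a1*) and 25 others. The 4 combinations of genotype and stage had 4 C57BL/6 hearts each, every heart from a single embryo and on an array of its own, so the replicates are separate embryos. In the mutants, Cre recombinase under *Mesp1* control deletes the floxed *Chd7* alleles in the anterior mesoderm and its descendants, which form most of the heart, whereas the neural crest keeps *Chd7*. The labels call the controls WT, the study's methods give them as *Chd7* +/+;*Mesp1-Cre*, and the stated cross of *Chd7* fl/fl with *Chd7* fl/+;*Mesp1-Cre* mice cannot give +/+ offspring, so the exact control genotype was not settled here. Neither sex nor hybridisation date is given. The mean log2 value of 3 Y-linked probe sets was 8.33 to 8.93 in all 4 control hearts at E11.5, and 5.2, 8.53, 8.26 and 4.63 in mutant replicates 1 to 4. At E13.5 it was 5.40, 4.20, 9.24 and 9.26 in control replicates 1, 2, 4 and 5 and 4.56, 4.41, 4.37 and 9.31 in mutant hearts, so its level was unequal between the groups. With it as a covariate no collagen gene was called by genotype.

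Collagens are proteins of the extracellular matrix in which 3 chains wind into a triple helix. Fibrillar collagens assemble outside the cell into the fibrils that carry tension in valves, adventitia and tendon. Type IV collagen forms the sheet of the basement membrane under endothelium and epicardium and around cardiomyocytes. The remaining families decorate fibrils, build beaded microfibrils and hexagonal networks, or stay in the cell membrane. In the embryonic heart, fibrillar collagens are made chiefly by cushion mesenchyme, epicardium and the fibroblasts and mural cells that derive from it.

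Values are log2 expression as the authors deposited them, normalised by robust multi-array average (RMA). A log2 FC is a difference of group means on this scale, given as mutant minus control or as E13.5 minus E11.5. The study's thresholds were used to call a gene, namely a size over 0.5 and limma's adjusted p below 0.05. *Chd7* itself fell by 1.29 (SE 0.14, adjusted p = 0.00132) at E11.5 and by 1.08 (SE 0.14, adjusted p = 0.0209) at E13.5, and mutant and control hearts did not overlap at either stage. Cardiomyocyte markers were high in all hearts, with a log2 summed level between 15.99 and 16.37. Mutant E11.5 replicate 3 differed most from the other hearts of its group (SD over all probe sets 0.456, against 0.398 to 0.421 for the others), and mutant E11.5 replicate 4 had the highest sum of hypoxia-induced genes (15.43, against 14.62 to 15.27 elsewhere). Only 3 collagen genes (*Col10a1*, *Col19a1* and *Col28a1*) had a mean below percentile 40 of all probe sets (log2 6.34), and no collagen gene was left out for its level.

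The comparison of mutant with control hearts asks which genes depend on *Chd7* in the mesoderm. None of the 44 collagen genes was called at E11.5, where 0.251% of all genes were, and none at E13.5, where 0.0451% were. The difference of the genotype effects between the stages was also called for 0 collagen genes (0.00% of all genes). Before adjustment, limma gave p under 0.05 for 3 collagen genes at E11.5, 2 at E13.5 and 1 in the difference, of 44 in each, beside 9.34%, 3.94% and 3.96% of all genes. Over the other settings tried, these numbers ran from 0 to 5, from 1 to 3 and from 0 to 3, with no collagen gene called in any of them. The median log2 FC at E11.5 was 0.08 for fibrillar genes, 0.03 for basement membrane genes and -0.03 for the others, and at E13.5 it was 0.02, -0.05 and -0.01. The median of all genes was 0.0039 at E11.5 and 0.0042 at E13.5.

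The intervals of these differences show what size of change in array signal the data of each gene allow. They were taken gene by gene, without adjustment for the 44 genes. At E11.5 the 95% intervals of the 44 genes, each read by 1 probe set, ran from -0.65 to 0.84, and 32 of them lay wholly within 0.5 of zero in either direction. At E13.5 they ran from -0.73 to 0.89, and 36 lay within 0.5. All 44 lay within 1, a change of a factor of 2, at both stages. In a whole heart, fewer cells of a type and less RNA per cell cannot be told apart.

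**Figure D1:**
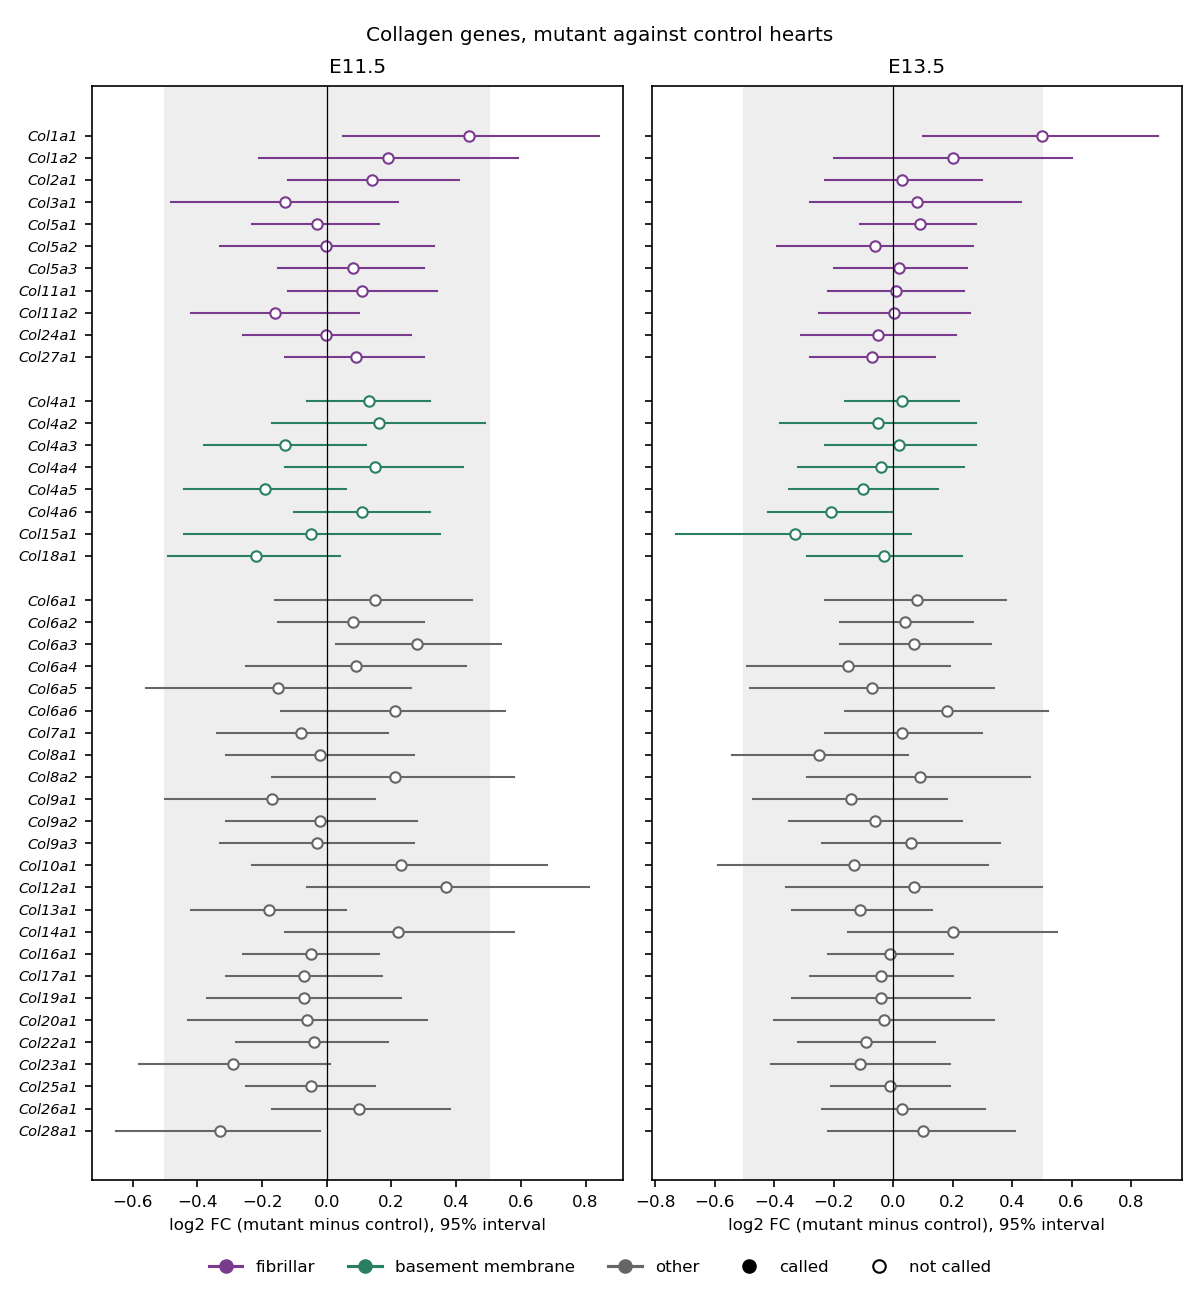
Log2 FC (mutant minus control, x axis) of the 44 collagen genes with limma's 95% interval at E11.5 and E13.5, by class, with the range within 0.5 of zero shaded. No gene is called at either stage, and *Col1a1* lies farthest to the right at both (0.44 and 0.50).

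Among the fibrillar genes, the 2 chains of type I collagen, the main fibril former of connective tissue, were high in the same mutant hearts. *Col1a1*, its alpha 1 chain, was measured at 11.96, 11.29, 11.78 and 11.25 in mutant replicates 1 to 4 and at 11.17, 11.28, 11.08 and 10.98 in control hearts at E11.5. At E13.5 it was 11.52, 11.05, 11.93 and 11.28 in mutant hearts and 10.84, 10.84, 11.07 and 11.04 in control hearts (replicates 1, 2, 4 and 5). Mutant replicates 1 and 3 stood highest at both stages, and the lowest mutant hearts overlapped the highest control heart. The log2 FC was 0.44 (SE 0.19, 1.36-fold, unadjusted p = 0.03, adjusted p = 0.461) at E11.5 and 0.50 (SE 0.19, 1.41-fold, unadjusted p = 0.0165, adjusted p = 1.00) at E13.5, and the exact permutation p was 0.0571 at each.

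*Col1a2*, the alpha 2 chain, followed the same mutant hearts. At E11.5 its values were 10.64, 9.89, 10.55 and 9.86 in mutant hearts and between 10.03 and 10.05 in all 4 control hearts. At E13.5 they were 10.93, 10.46, 11.29 and 10.71 in mutant hearts and 10.51, 10.65, 10.72 and 10.73 in control hearts. The 2 higher mutant hearts at E11.5 thus lay above all controls and the 2 lower ones below them, and the mean difference was 0.19 (adjusted p = 0.819) at E11.5 and 0.20 (adjusted p = 1.00) at E13.5. With single mutant hearts left out it was 0.06, 0.31, 0.09 and 0.32 at E11.5 (without replicate 1, 2, 3 or 4), and at E13.5 it was 0.05 without replicate 3 and 0.33 without replicate 2. *Col3a1*, which forms fibrils with type I collagen in extensible tissues, was 10.13, 9.42, 10.03 and 9.52 in mutant and 9.99, 9.93, 9.94 and 9.77 in control hearts at E11.5. At E13.5 it was 10.22, 9.95, 10.49 and 9.95 in mutant and 9.86, 10.04, 10.21 and 10.18 in control hearts, so its log2 FC of -0.13 and 0.08 had no settled direction.

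The spread of these 3 genes was wider in mutant than in control hearts. At E11.5 the SD (n = 4) was 0.36 against 0.13 for *Col1a1*, 0.42 against 0.01 for *Col1a2* and 0.36 against 0.10 for *Col3a1*. At E13.5 it was 0.38 against 0.12, 0.35 against 0.10 and 0.26 against 0.16. Over all collagen genes the SD was larger in mutant hearts for 25 of 44 (56.8%) at E11.5 and 31 of 44 (70.5%) at E13.5, beside 56% and 55.2% of all genes, and no test was made of these shares.

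Summed levels of markers of cells that make fibrillar collagen are given beside these values. The 9 epicardial markers, all above the dim limit, had a log2 summed level of 13.35 to 13.83 in mutant hearts at E11.5 and of 13.23, 13.20 and 13.37 in control replicates 1 to 3, with control replicate 4 above mutant replicates 2 and 3. At E13.5 it was 13.15 to 13.41 in control and 13.34 to 14.20 in mutant hearts. In mutant replicates 1 to 4 at E13.5 the sum was 13.82, 13.34, 14.20 and 13.35, with replicates 3 and 1 highest, as for *Col1a1*. At E11.5 it was 13.79, 13.35, 13.46 and 13.83, with replicate 4, low in *Col1a1*, the highest. The 10 cushion mesenchyme markers had a summed level of 13.95 to 14.20 in control and 13.73 to 14.02 in mutant hearts at E11.5 and at 14.15 to 14.31 against 13.88 to 14.14 at E13.5. No gene of either list was called by genotype, and the part of these cells in the collagen values was not tested.

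The other fibrillar genes differed by less between genotypes than *Col1a1* and *Col1a2* at both stages. *Col11a2*, a chain of the type XI collagen of cartilage fibrils, was 7.36, 7.12, 7.32 and 7.48 in mutant and 7.49, 7.66, 7.53 and 7.25 in control hearts at E11.5, with a log2 FC of -0.16 (SE 0.12, adjusted p = 0.739). *Col5a1* and *Col5a2*, chains of the type V collagen on which fibrils are started, differed by -0.03 and -0.001 at E11.5 and by 0.09 and -0.06 at E13.5.

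For the basement membrane genes, the smallest unadjusted p at E11.5 were those of *Col18a1*, whose end fragment is endostatin, and of *Col4a5*, a chain of a type IV network with restricted distribution. *Col18a1* was 9.52, 9.80, 9.44 and 9.81 in mutant and 9.83, 9.76, 9.83 and 10.04 in control hearts (log2 FC -0.22, SE 0.12, adjusted p = 0.607). *Col4a5* was 7.93, 8.21, 7.93 and 7.94 in mutant and 7.98, 8.39, 8.36 and 8.05 in control hearts (log2 FC -0.19, SE 0.12, adjusted p = 0.662). For both genes the ranges overlapped.

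At E13.5, *Col4a6*, the partner of *Col4a5*, was the only collagen gene whose mutant and control hearts did not overlap, where 4.08% of all genes had such hearts and none of the collagen genes did at E11.5 (3.93% of all genes). Its values were 7.34, 7.13, 7.39 and 7.34 in mutant and 7.48, 7.55, 7.52 and 7.51 in control hearts, a log2 FC of -0.21 (SE 0.10, unadjusted p = 0.0467, adjusted p = 1.00; exact permutation p = 0.0286, the smallest that 4 hearts against 4 can give). At E11.5 the sign was the opposite, with 7.61, 7.60, 7.20 and 7.52 in mutant and 7.36 to 7.38 in control hearts, and the difference between the stages of -0.33 (SE 0.14, unadjusted p = 0.0334) had an adjusted p of 1.00. *Col15a1*, a multiplexin of vessel and muscle basement membranes, was 7.42, 7.51, 7.88 and 7.34 in mutant and 7.44, 7.90, 8.18 and 7.97 in control hearts at E13.5 (log2 FC -0.33, SE 0.19, adjusted p = 1.00). The widely used type IV chains *Col4a1* and *Col4a2* differed by 0.13 and 0.16 at E11.5 and by 0.03 and -0.05 at E13.5.

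In the third class, *Col6a3*, the long chain of the type VI microfibrils, at E11.5 was 7.46, 7.71, 7.87 and 7.87 in mutant and 7.52, 7.56, 7.30 and 7.40 in control hearts (log2 FC 0.28, SE 0.12, unadjusted p = 0.0329, adjusted p = 0.473). Mutant replicate 1 lay among the controls, and at E13.5 the difference was 0.07. *Col28a1*, a collagen known from peripheral nerve, at E11.5 was 5.94, 5.53, 6.00 and 5.93 in mutant and 6.29, 6.25, 6.27 and 5.91 in control hearts (log2 FC -0.33, SE 0.15, unadjusted p = 0.0402, adjusted p = 0.495), near the dim end of the array. At E13.5 the smallest p of the class were those of *Col8a1*, a network collagen of vessel walls, and *Col14a1*, which binds to the surface of fibrils. *Col8a1* was 7.59, 7.34, 7.43 and 7.10 in mutant and 7.79, 7.62, 7.63 and 7.41 in control hearts (log2 FC -0.25, SE 0.14, adjusted p = 1.00), and *Col14a1* was 9.19, 9.08, 9.0 and 9.05 against 8.32, 8.75, 9.25 and 9.19 (log2 FC 0.20, SE 0.17, adjusted p = 1.00). The *Col14a1* difference was 0.02 without control replicate 1 and 0.33 without control replicate 4. The groups overlapped for all of these genes.

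The genotype differences at the 2 stages come from different hearts, so they can be set side by side. They had the same sign for 31 of 44 collagen genes (70.5%), beside 56.3% of all genes. By class, the sign was shared by 7 of 11 fibrillar, 4 of 8 basement membrane and 20 of 25 other genes. These shares are descriptions, without a test, since genes of a heart share its array.

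The change between stages was larger. In control hearts, 11 collagen genes (25%) were called higher at E13.5 than at E11.5, where 16.5% of all genes were, and 1 (2.27%) was called lower, where 12.3% were. Of the collagen genes, 41 were not dim. With dim probe sets left out of the fit, 22.8% of the remaining genes were called higher and 6.28% lower. The 11 were *Col1a2* and *Col5a2* of 11 fibrillar genes, *Col4a1*, *Col4a2* and *Col15a1* of 8 basement membrane genes, and *Col6a1*, *Col6a3*, *Col6a6*, *Col12a1*, *Col14a1* and *Col26a1* of 25 others, and *Col2a1* was lower. The median change was 0.14 for fibrillar, 0.12 for basement membrane and -0.06 for other genes, beside 0.04 for all genes. With dim probe sets left out, the median of all genes was 0.19, above each of these class medians. Where hearts of the 2 stages did not overlap, this is described gene by gene below. The share of all genes with such hearts is not given here, so non-overlap adds nothing to the calls. A further 5 genes passed the adjusted p with a smaller change, of which *Col5a1* was lower (-0.31) and *Col24a1*, *Col27a1*, *Col9a2* and *Col19a1* were higher (0.46, 0.32, 0.43 and 0.45). Arrays of the 2 stages differed in spread (SD within an array 2.18 to 2.26 at E11.5 and 2.38 to 2.42 at E13.5), and no source used here says whether they were normalised in a single run, so stage and array handling cannot be told apart.

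**Figure D2:**
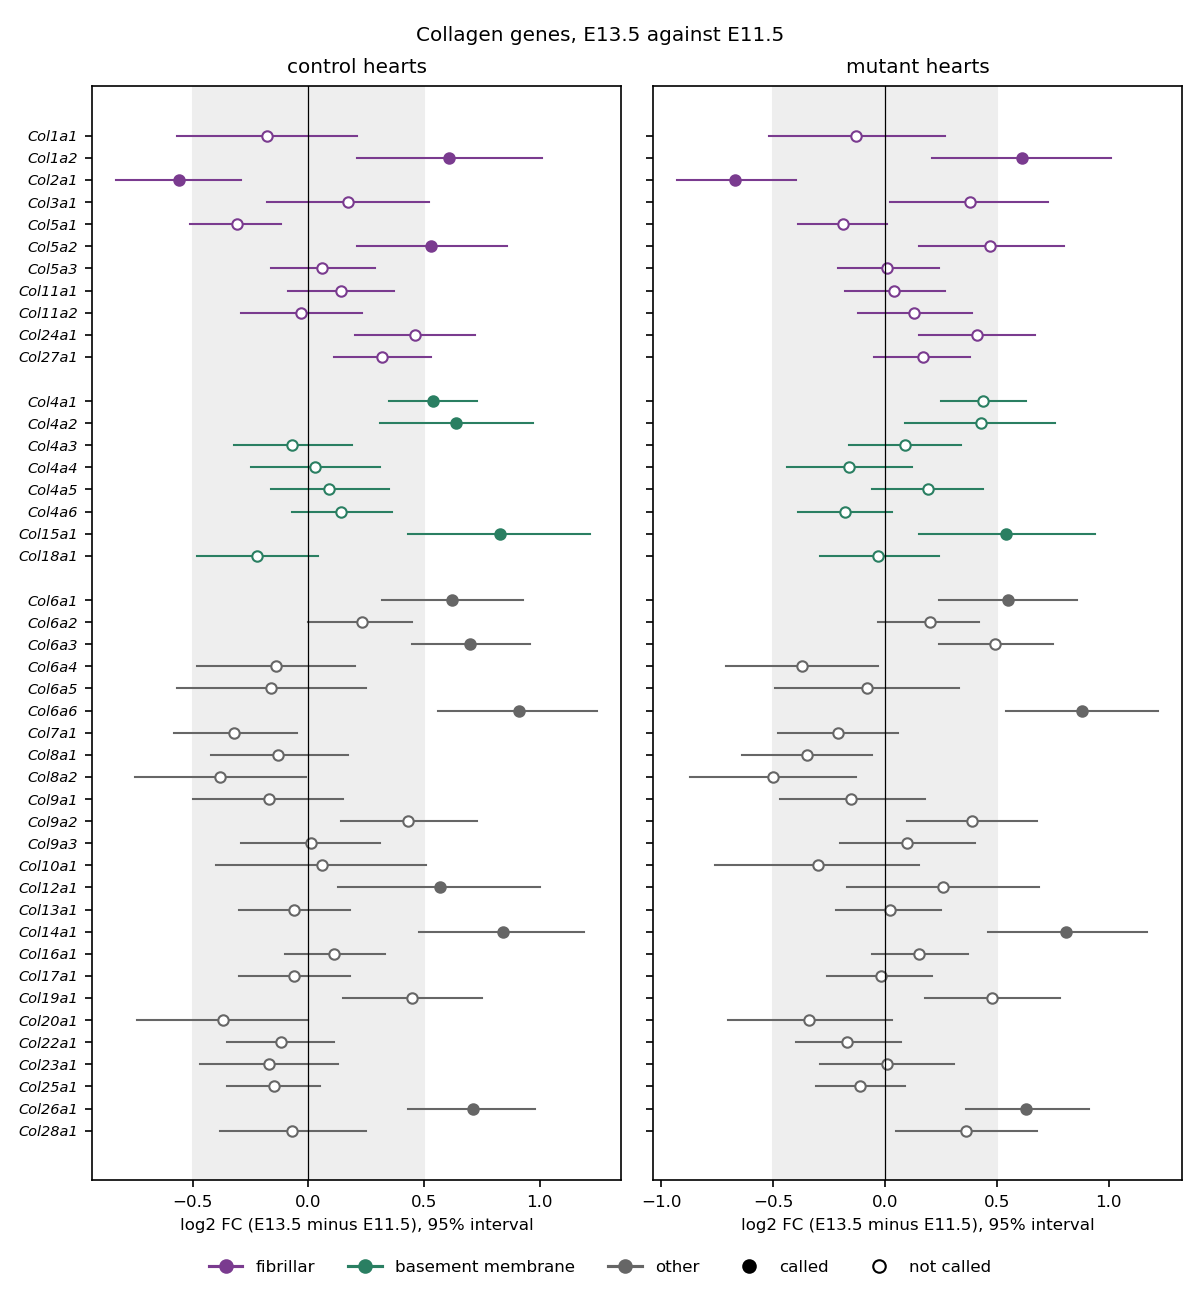
Log2 FC (E13.5 minus E11.5, x axis) of the 44 collagen genes with limma's 95% interval in control and in mutant hearts, by class, with called genes filled and the range within 0.5 of zero shaded. In control hearts 12 genes are called and in mutant hearts 7, and *Col2a1* is the only called gene to the left of zero in each.

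Because the spread of the arrays differed, the values were also brought to equal distributions in 3 ways. In control hearts 7 collagen genes were then called higher under quantile normalisation, 6 under cyclic loess and 6 when the arrays were scaled to the same spread, where 11.4%, 10.9% and 10.7% of all genes were. *Col6a3*, *Col6a6*, *Col14a1*, *Col15a1* and the fall of *Col2a1* were called under all 3. *Col26a1* was called under quantile normalisation (0.51) but not under the other 2 (0.47 and 0.48). The calls of *Col1a2*, *Col4a1*, *Col4a2*, *Col5a2*, *Col6a1* and *Col12a1* were lost under each, with the sign kept and sizes between 0.25 and 0.51 (for *Col12a1* under scaling, at 0.51, by its adjusted p), and *Col19a1* and *Col24a1* were called higher under all 3.

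**Figure D3:**
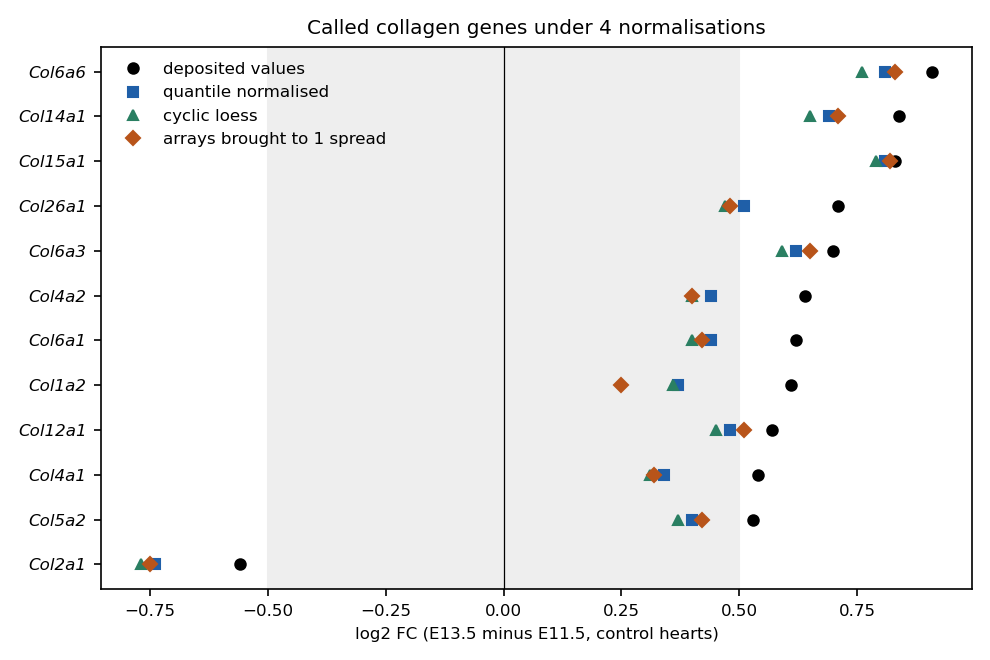
Log2 FC between stages in control hearts (x axis) of the 12 called collagen genes on the deposited values (circles) and after quantile normalisation (squares), cyclic loess (triangles) or scaling to equal spread (diamonds), with the range within 0.5 of zero shaded. *Col6a6*, *Col14a1*, *Col15a1*, *Col6a3* and *Col2a1* stay outside the shaded range throughout, and *Col1a2* moves from 0.61 to 0.25 at the lowest.

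Within the fibrillar class the chains of type I collagen parted. *Col1a2* rose from 10.04 ± 0.01 (SD, n = 4) at E11.5 to 10.65 ± 0.10 at E13.5 in control hearts, with no overlap, a log2 FC of 0.61 (SE 0.19, 1.52-fold, adjusted p = 0.0176). *Col1a1* did not pass the test and went from 11.13 ± 0.13 to 10.95 ± 0.12 (log2 FC -0.18, SE 0.19, adjusted p = 0.454), and it was called lower (-0.63) when the arrays were scaled to equal spread. *Col3a1* went from 9.90 ± 0.10 to 10.07 ± 0.16 (log2 FC 0.17, adjusted p = 0.43), and its sign turned under the 3 other normalisations (-0.06, -0.08 and -0.15).

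Type V collagen parted in the same way. *Col5a2* rose from 8.21, 7.74, 8.29 and 8.17 to 8.30, 8.69, 8.82 and 8.75 (log2 FC 0.53, SE 0.15, 1.45-fold, adjusted p = 0.012), with the highest E11.5 heart just below the lowest E13.5 heart. The call was lost without control E11.5 replicate 2 (0.41), E13.5 replicate 4 (0.47) or E13.5 replicate 5 (0.50). *Col5a1* went from 8.77, 8.87, 8.80 and 8.61 to 8.50, 8.40, 8.39 and 8.50, lower in all 4 E13.5 hearts (adjusted p = 0.014) but by less than the threshold on size. *Col2a1*, the collagen of cartilage, fell by 0.56 (SE 0.12, 1.47-fold, adjusted p = 0.00241), from 9.13, 9.53, 9.07 and 8.84 to 8.71, 8.51, 8.55 and 8.57. Without control E11.5 replicate 2, its highest heart, the change was -0.43 and no longer called. Of 10 cartilage markers 3 were dim, and the log2 summed level of the 10 was 9.76 to 9.91 at E11.5 and 9.89 to 10.33 at E13.5 in control hearts. The markers did not move together, with 2 called higher and 1 lower at E13.5. In control means, *Cytl1* went from 7.29 to 8.35 and *Snorc* from 6.86 to 6.23. Of the 10 cushion mesenchyme markers, 2 were likewise called higher and 1 lower at E13.5 in control hearts. Their log2 summed level was 13.95 to 14.20 at E11.5 and 14.15 to 14.31 at E13.5. The part of cartilage or of cushion mesenchyme in the *Col2a1* values was not tested.

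**Figure D4:**
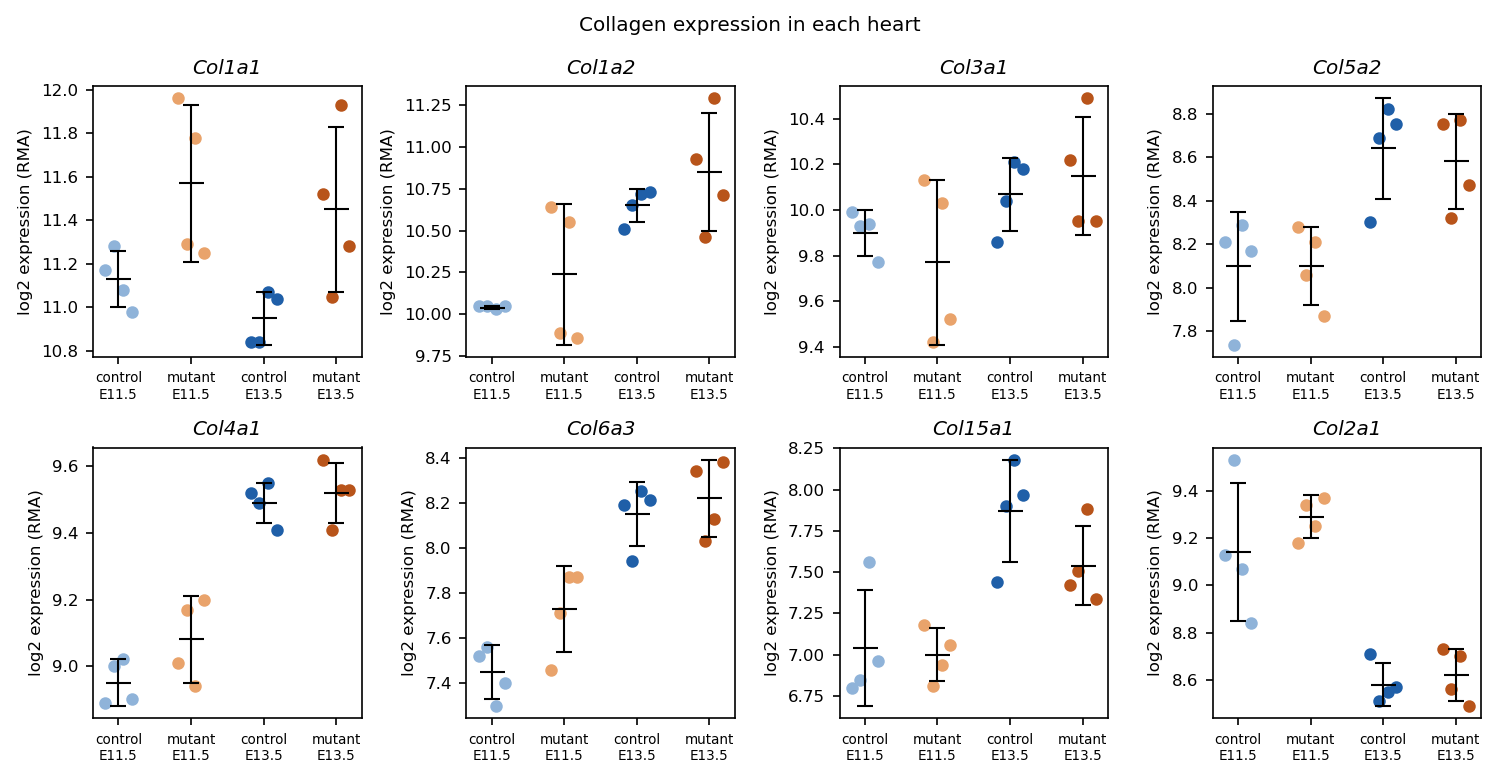
Log2 expression (y axis) of 8 collagen genes in each heart (points, in order of replicate number) of the 4 groups, with mean and SD as bars. *Col1a1* and *Col1a2* are spread more widely in mutant than in control hearts, *Col4a1* and *Col6a3* are higher in every E13.5 heart than in any E11.5 heart, and *Col2a1* is lower in every E13.5 heart.

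In the basement membrane class, the rise was in the partner chains *Col4a1* and *Col4a2* and in *Col15a1*. *Col4a1* went from 8.89, 9.0, 9.02 and 8.90 to 9.52, 9.49, 9.55 and 9.41 in control hearts (log2 FC 0.54, SE 0.09, 1.45-fold, adjusted p = 0.000228). *Col4a2* went from 8.85, 9.16, 9.04 and 9.11 to 9.72, 9.66, 9.75 and 9.59 (log2 FC 0.64, SE 0.16, 1.55-fold, adjusted p = 0.00447). For both chains all E13.5 hearts lay above all E11.5 hearts. *Col15a1* went from 6.80, 6.85, 7.56 and 6.96 to 7.44, 7.90, 8.18 and 7.97 (log2 FC 0.83, SE 0.19, 1.78-fold, adjusted p = 0.00252), with E11.5 replicate 3 above the lowest E13.5 heart. *Col4a3*, *Col4a4*, *Col4a5*, *Col4a6* and *Col18a1* did not pass, with log2 FC between -0.22 and 0.14.

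Type VI collagen gave 3 of the 6 called genes of the third class, from 6 chains measured. *Col6a3* went from 7.52, 7.56, 7.30 and 7.40 to 8.19, 7.94, 8.25 and 8.21 in control hearts (log2 FC 0.70, SE 0.12, 1.63-fold, adjusted p = 0.000334). *Col6a1*, which joins *Col6a2* and *Col6a3* in the common trimer, went from 8.43, 8.97, 8.81 and 8.68 to 9.39, 9.16, 9.46 and 9.38 (log2 FC 0.62, SE 0.14, 1.54-fold, adjusted p = 0.00314). *Col6a6*, a chain that can take the place of the alpha 3 chain, went from 7.77, 7.25, 7.84 and 7.78 to 8.30, 8.54, 8.58 and 8.86 (log2 FC 0.91, SE 0.16, 1.88-fold, adjusted p = 0.000462). No E13.5 heart overlapped an E11.5 heart for these 3 chains, and the second probe set of *Col6a6* was also called, at 0.87 (SE 0.21, adjusted p = 0.00458). In mutant hearts that second probe set gave 1.41 (SE 0.21, adjusted p = 0.000126), against 0.88 for the probe set used. By genotype at E13.5 it gave 0.48 (95% interval 0.03 to 0.94, unadjusted p = 0.04, adjusted p = 1.00), against 0.18 for the probe set used, so the probe sets disagree on the size. *Col6a2* went from 9.37, 9.42, 9.51 and 9.23 to 9.72, 9.46, 9.48 and 9.78 (log2 FC 0.23, SE 0.10, adjusted p = 0.0936), and the sign turned under cyclic loess (-0.01) and scaling (-0.03).

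*Col14a1* and *Col12a1* belong to the collagens that attach to fibrils without forming them. *Col14a1* went from 8.10, 8.05, 8.04 and 7.98 to 8.32, 8.75, 9.25 and 9.19 in control hearts (log2 FC 0.84, SE 0.17, 1.78-fold, adjusted p = 0.00104). *Col12a1* was called at 0.57 (SE 0.20, adjusted p = 0.0354), but its groups overlapped and the call was lost without any of 5 control hearts and with the replicate number as a block (0.48). *Col26a1*, which fits none of the large families, went from 8.82, 8.82, 9.18 and 9.04 to 9.53, 9.70, 9.80 and 9.65 (log2 FC 0.71, SE 0.13, 1.63-fold, adjusted p = 0.000559). The 4 transmembrane collagens (*Col13a1*, *Col17a1*, *Col23a1* and *Col25a1*) did not pass, with log2 FC between -0.17 and -0.06.

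In mutant hearts the same comparison called 6 collagen genes higher (13.6%, beside 16.8% of all genes) and 1 lower (2.27%, beside 12.8% of all genes). With dim probe sets left out of the fit, 23% of the remaining genes were called higher and 6.18% lower. All 7 called collagen genes were among the 12 of control hearts. These were *Col6a6* (0.88), *Col14a1* (0.81), *Col26a1* (0.63), *Col1a2* (0.61), *Col6a1* (0.55), *Col15a1* (0.54) and *Col2a1* (-0.67). Of the other 5, *Col4a1* (0.44), *Col4a2* (0.43), *Col5a2* (0.47) and *Col6a3* (0.49) passed the adjusted p at a smaller size, and *Col12a1* (0.26) did not. All 12 kept their sign. The 2 comparisons share no hearts, and over the 44 genes their log2 FC correlated with r = 0.91, beside 0.89 over all genes, which is a description across genes and not across samples. Since the test of the difference called no gene, no collagen gene was shown to change between the stages by a different amount in the mutants.

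Leaving out single hearts moved the mutant count between 4 and 9 genes called higher. The *Col1a2* call was lost without mutant E11.5 replicate 2 or 4 or E13.5 replicate 3, and also with each genotype fitted alone. The *Col15a1* call was lost without E11.5 replicate 2 or 3 or E13.5 replicate 3. The *Col6a1* call was lost without E11.5 replicate 2 or E13.5 replicate 4. *Col6a3*, just under the threshold on size, was called without E11.5 replicate 3 or 4 or E13.5 replicate 2 or 3, *Col5a2* without E11.5 replicate 1 or 3 or E13.5 replicate 2 or 4, and *Col4a2* without E11.5 replicate 2 or 4 or E13.5 replicate 2. Brought to equal distributions, the mutant arrays gave 6 (quantile normalisation), 5 (cyclic loess) and 5 (scaling) genes called higher, where 11.6%, 11.3% and 11.1% of all genes were, and the calls of *Col1a2*, *Col6a1* and *Col26a1* were lost under each while those of *Col6a6*, *Col14a1*, *Col15a1* and *Col2a1* were kept.

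The bases before the annotated starts of 4 genes called higher in control hearts, from the 3 classes, are shown because they rose together. RefSeq windows (GRCm38.p6) were found for 35 of the 44 genes, and the entries of *Col1a1*, *Col2a1*, *Col4a3*, *Col5a2*, *Col9a3*, *Col12a1*, *Col14a1*, *Col22a1* and *Col26a1* were not. The 250 bases upstream of the start were searched on both strands for GGGCGG (the GC box), CCAAT and TATAAA, and matches are in capitals, read 5′ to 3′ on the strand of the gene. *Col1a2* is at chr6:4505368-4505617 on the plus strand, *Col6a3* at chr1:90843972-90844221 on the minus strand, *Col6a6* at chr9:105828086-105828335 on the minus strand and *Col15a1* at chr4:47207762-47208011 on the plus strand.
Col1a2: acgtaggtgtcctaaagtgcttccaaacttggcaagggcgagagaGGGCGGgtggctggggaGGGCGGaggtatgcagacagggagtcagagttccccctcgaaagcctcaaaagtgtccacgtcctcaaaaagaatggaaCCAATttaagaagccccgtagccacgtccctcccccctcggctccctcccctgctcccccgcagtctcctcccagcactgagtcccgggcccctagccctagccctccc
Col6a3: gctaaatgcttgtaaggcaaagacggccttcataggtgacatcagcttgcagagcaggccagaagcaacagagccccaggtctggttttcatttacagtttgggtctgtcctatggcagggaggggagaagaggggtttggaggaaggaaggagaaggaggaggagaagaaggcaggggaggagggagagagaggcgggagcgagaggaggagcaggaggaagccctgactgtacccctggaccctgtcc
Col6a6: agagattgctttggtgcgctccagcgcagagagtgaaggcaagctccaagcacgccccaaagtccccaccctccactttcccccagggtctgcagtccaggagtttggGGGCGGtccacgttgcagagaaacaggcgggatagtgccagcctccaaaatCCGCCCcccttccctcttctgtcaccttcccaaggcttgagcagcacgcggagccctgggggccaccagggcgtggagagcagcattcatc
Col15a1: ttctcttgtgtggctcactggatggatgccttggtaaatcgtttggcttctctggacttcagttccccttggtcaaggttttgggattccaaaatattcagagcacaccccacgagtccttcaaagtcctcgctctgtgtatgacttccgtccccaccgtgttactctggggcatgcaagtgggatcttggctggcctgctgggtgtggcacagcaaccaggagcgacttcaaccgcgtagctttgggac

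The *Col1a2* window held GC boxes that start 205 and 188 bases before the gene's start and a CCAAT box at 109 bases. The *Col6a6* window held GC boxes at 142 and 91 bases, the nearer on the opposite strand. The *Col6a3* and *Col15a1* windows held none of the 3 letter strings, and no matches overlapped. Over the 35 collagen genes, 21 (60%) had a GC box, 13 (37.1%) a CCAAT box and 5 (14.3%) a TATA box. Of all 32851 windows, 32.7%, 33.8% and 12.4% had them. The collagen shares are counted by gene, whereas those of all windows are counted by window. All windows outnumber the 19937 genes that a probe set names alone, so they are a different background. Enrichment of these letters in collagen genes was not tested. Of the 7 risers with a window, 3 had a GC box, 3 a CCAAT box and 0 a TATA box, and of the other 28 collagen genes 18, 10 and 5 had them. *Col4a1* and *Col4a2* lie head to head, and the 22 bases at chr8:11312805-11312826 lie just after the annotated start of each. They are shown on the plus strand, the strand of *Col4a2*, and no letters were searched in them.
Col4a2 and Col4a1 starts: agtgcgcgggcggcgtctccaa

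Chains of a trimer were next compared within each heart, as the log2 value of a chain minus that of its partner. A probe set's level cannot be set against another's, so only the shift of this difference between groups is read. For *Col1a2* minus *Col1a1* it was -1.08 ± 0.13 (SD, n = 4) in control and -1.33 ± 0.08 in mutant hearts at E11.5. At E13.5 it was -0.29 ± 0.07 in control and -0.60 ± 0.03 in mutant hearts. The 4 groups did not overlap in any of the 4 comparisons (exact permutation p = 0.0286 for each, adjusted p = 0.126 over 44 tests of 11 pairs), so that *Col1a1* stood higher against *Col1a2* in every mutant heart of a stage by a shift of 0.25 and 0.30, whether the heart was high or low in both. The ranges at E11.5 were close, with -1.23 at the highest mutant and at the lowest control heart after rounding.

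For type I collagen the shift between stages was larger than that between genotypes. *Col1a2* rose against *Col1a1* by 0.79 in control and 0.74 in mutant hearts, and by 0.79 and 0.72 after quantile normalisation and 0.88 and 0.86 after scaling. *Col5a2* rose against *Col5a1* by 0.85 in control and 0.67 in mutant hearts, and *Col9a2* against *Col9a1*, chains of a cartilage collagen that coats type II fibrils, by 0.61 and 0.54, without overlap in either genotype. *Col6a2* fell by 0.40 against *Col6a1* in control hearts without overlap, and by 0.36 in mutant hearts with overlap. In contrast, *Col4a2* minus *Col4a1* shifted by 0.10 in control hearts and -0.02 in mutant hearts (exact permutation p = 0.257 and 0.914), and *Col6a3* minus *Col6a1* by 0.08 and -0.06 (exact permutation p = 0.571 and 0.857). *Col4a6* minus *Col4a5* shifted between the stages by 0.05 in control hearts (exact permutation p = 0.629) and by -0.37 in mutant hearts without overlap (exact permutation p = 0.0286), and between genotypes at E11.5 by 0.31 (exact permutation p = 0.114). With 4 hearts against 4, no pair passed the adjustment.

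**Figure D5:**
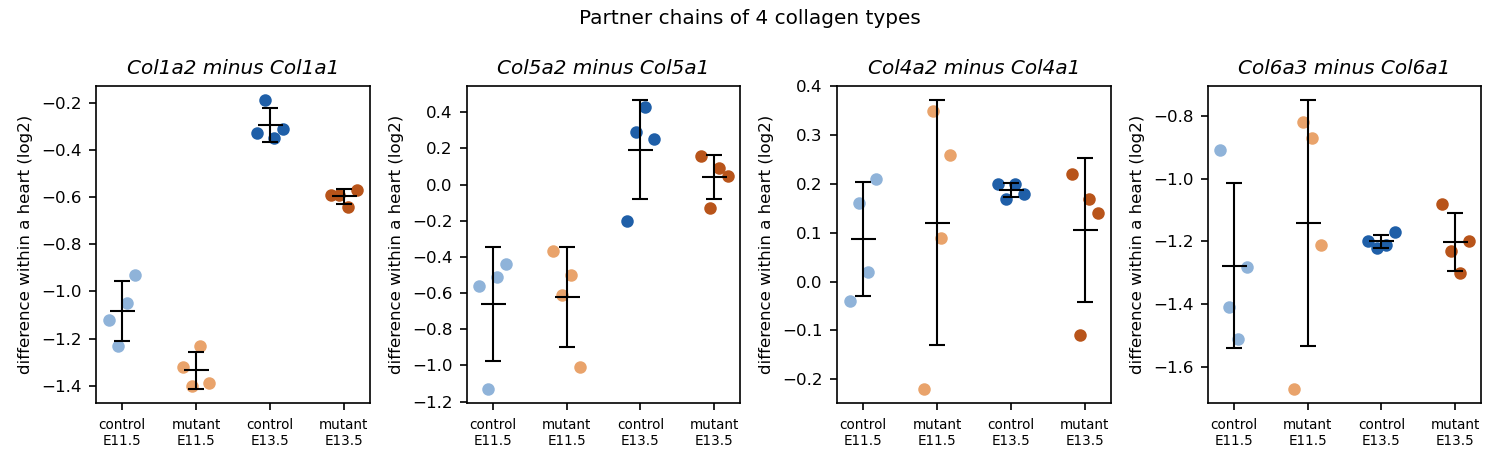
Log2 value of a chain minus that of its partner within each heart (y axis) for types I, V, IV and VI, with points for hearts and bars for mean and SD. *Col1a2* minus *Col1a1* separates all 4 groups, from -1.33 in mutant E11.5 to -0.29 in control E13.5 hearts, whereas *Col4a2* minus *Col4a1* overlaps throughout.

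Of 74 listed genes that make, process and read collagen (modification, folding, export, processing, cross-linking, fibril binding, receptors and turnover), 69 were measured. None was called by genotype at either stage (0.251% and 0.0451% of all genes), and limma gave an unadjusted p under 0.05 for 9 at E11.5 and 6 at E13.5, beside 9.34% and 3.94% of all genes. The lowest adjusted p were those of *Pcolce2*, an enhancer of procollagen processing, at E11.5 (log2 FC -0.85, SE 0.18, adjusted p = 0.0775) and of *Mmp9*, a gelatinase, at E13.5 (log2 FC 1.15, SE 0.23, adjusted p = 0.125). *Pcolce2* was 5.73, 6.30, 5.57 and 6.02 in mutant and 6.94, 7.14, 6.57 and 6.38 in control hearts, and *Mmp9* 7.71, 6.96, 7.98 and 7.30 against 6.68, 6.02, 6.26 and 6.41. The hearts did not overlap for either gene, where 3.93% of all genes at E11.5 and 4.08% at E13.5 had such hearts. Both genes were picked by their adjusted p, and other pathway genes also had hearts that did not overlap. With only single-gene probe sets in the fit 1 gene was called lower at E11.5, and with array weights 1 gene was called higher at E13.5.

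Between the stages, 22 of the 69 pathway genes were called higher in control hearts and 19 in mutant hearts, with 0 lower in each, beside 16.5% and 16.8% of all genes higher and 12.3% and 12.8% lower. With dim probe sets left out of the fit, 22.8% and 23% of the remaining genes were called higher and 6.28% and 6.18% lower. By role, the calls in control hearts were 5 of 15 genes of prolyl and lysyl modification, 3 of 5 cross-linking genes, 6 of 11 fibril-binding proteoglycans and glycoproteins, 4 of 12 turnover genes, 2 of 9 processing genes, 1 of 9 chaperone and export genes and 1 of 8 receptors. *Crtap*, *P3h3* and *Ppib*, which act in or beside the prolyl 3-hydroxylase complex of the endoplasmic reticulum, rose by 1.18 (SE 0.11, adjusted p = 1.47e-06), 1.13 (SE 0.13, adjusted p = 1.58e-05) and 0.99 (SE 0.10, adjusted p = 4.79e-06). *Tgm2*, a cross-linking transglutaminase, rose by 1.01, the fibril-binding proteoglycan *Bgn* by 0.80 and the protease inhibitor *Timp3* by 0.80. *Dcn*, which binds fibrils, rose by 1.21 in control and by 1.31 in mutant hearts (SE 0.18 in each).

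This balance depended on the normalisation. When the arrays were scaled to equal spread, 11 pathway genes were called higher and 6 lower in control hearts and 12 higher and 5 lower in mutant hearts (10.7%, 10.9%, 11.1% and 11.1% of all genes), and the calls of *Ppib*, *Bgn* and *Timp3* were lost in control hearts. Of 15 measured partners of type IV collagen (laminins, nidogens, perlecan, *Agrn* and *Pxdn*), *Lamb2* was called higher (0.74) and *Lama1* lower (-0.70) in control hearts. None was called by genotype.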

How the data were processed

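Total RNA of 16 single hearts was hybridised to Affymetrix Mouse Gene 1.0 ST arrays, and the values the authors deposited are log2 expression after RMA (affy package). No versions, scanner files or scan dates were given in the sources used here, so background correction and slide were not varied. Of 34760 probe sets, 21640 name a single gene in the platform annotation, 1321 several and 11799 none, and the brightest single-gene probe set stood for each gene. Group means were fitted over all 16 arrays and 34760 probe sets with limma 3.58.1 (R 4.3.3), with Benjamini-Hochberg adjustment within each comparison, and the scripts were tested on simulated data. The difference between stages had no threshold on size. Single genes and chain pairs were tested by exact two-sided permutation of 4 hearts against 4 (smallest p 0.0286). The exact p-values rest on the hearts compared. Those of limma rest on a spread for each gene, pooled over the 4 groups and moderated across probe sets. A wider spread in mutant hearts thus also enters the SE of comparisons within control hearts, and the number of arrays limits the precision.

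Values by heart were given for the 2 genes of each class with the smallest p in a genotype comparison, the 3 called genes of each class with the largest change between stages in control hearts and the chains of types I, III, IV, V and VI. Pathway genes were named by smallest adjusted p, up to 6 per comparison. *Pcolce2*, *Mmp9*, *Lamb2* and *Lama1* were chosen after their values were seen. The members, lists, chain pairs and this rule were chosen with earlier results of these data known. Groups came from the labels. The alternatives varied the samples fitted, the variance prior, array weights, normalisation, filter, choice of probe set, replicate block, a covariate of Y-linked genes, the threshold on size and each heart in turn.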

Additional observations from a re-analysis of the deposited data

Results flagged for a closer look

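Of 84 groups of 4 hearts of the collagen genes described singly, 7 held a heart far from the other 3 by Dixon's test, where chance gives about 1 group in 20. *Col4a5* was 8.21 in mutant E11.5 replicate 2, against 7.93 to 7.94 in the other 3. *Col28a1* was 5.91 in control E11.5 replicate 4, against 6.25 to 6.29, and 5.53 in mutant E11.5 replicate 2, against 5.93 to 6.00. *Col4a6* was 7.13 in mutant E13.5 replicate 2, against 7.34 to 7.39. *Col8a1* was 8.05 in control E11.5 replicate 1, against 7.62 to 7.65, and 7.43 in mutant E11.5 replicate 2, against 7.80 to 7.82. *Col6a6* was 7.25 in control E11.5 replicate 2, against 7.77 to 7.84.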

How the results depend on the processing

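No collagen gene was called by genotype, or in the difference between stages, under any of 30 and 28 alternatives. Between stages, quantile normalisation, cyclic loess and scaling gave 7, 6 and 6 collagen genes called higher in control hearts. Genes called lower numbered 2 with cyclic loess, 3 with scaling and 2 with no threshold on size in control hearts, and in mutant hearts 2 with array weights, quantile normalisation, cyclic loess, the Y-linked covariate or no threshold and 3 with scaling. With no threshold, 13 were higher in mutant hearts. The fibrillar median in control hearts was 0.07 under cyclic loess. *Col3a1* in control hearts reversed to -0.06, -0.08 and -0.15 under quantile normalisation, cyclic loess and scaling, *Col6a2* to -0.01 (cyclic loess) and -0.03 (scaling) in control and to -0.03, -0.05 and -0.07 in mutant hearts, and *Col1a1* in mutant hearts to 0.01 without mutant E11.5 replicate 1 or E13.5 replicate 2 (-0.29 to 0.01 over the hearts left out). Of pathway genes, 1 was lower at E11.5 by genotype with single-gene probe sets alone and 1 higher at E13.5 with array weights. Between stages, scaling gave 11 pathway genes higher and 6 lower in control and 12 higher and 5 lower in mutant hearts, quantile normalisation and cyclic loess gave 1 lower in each genotype, the Y-linked covariate gave 2 lower in control hearts, and no threshold gave 2 lower in control and 1 in mutant hearts. Leaving out single hearts gave 10 to 12 collagen genes higher and 0 to 2 lower in control hearts, 4 to 9 higher and 1 to 2 lower in mutant hearts, and 0 to 0 by genotype. For the pathway it gave 17 to 24 higher and 0 to 2 lower in control hearts, 17 to 20 higher and 0 to 1 lower in mutant hearts, and 0 to 1 lower at E11.5 by genotype. The causes were not tested. Without mutant E11.5 replicates 3 and 4 and control E13.5 replicate 1, chosen after seeing the data, 11 genes were higher and 1 lower in control and 7 higher and 1 lower in mutant hearts. With dim probe sets left out, the median stage change of all genes was 0.19 instead of 0.04 in control hearts.

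The labels do not say whether the replicate numbers pair the hearts, and they were not treated as pairs. Same-numbered mutant and control hearts of a stage deviated from their group means with correlations of -0.06 to 0.008. Hearts of other numbers had -0.188 to 0.196. Such correlations over all probe sets cannot settle whether hearts were paired. The replicate block gave hearts of equal number a shared term across both genotypes and both stages, although hearts of different stages are different embryos. Control E13.5 replicate 5 alone had its number, so that heart did not inform the block fit. With the replicate block, 11 collagen genes were higher and 1 lower in control hearts, 6 higher and 1 lower in mutant hearts and 0 called by genotype. Of the 12 control calls 11 were shared, *Col12a1* (0.48) was lost and *Col19a1* was gained.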
